A study of Mus musculus with 12 samples.

Results

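The folding machinery of the endoplasmic reticulum (ER) was read in mouse liver through 10 genes: the Hsp70 chaperone Hspa5 with its partners Dnajb11 and Hyou1, the Hsp90 chaperone Hsp90b1, the lectin chaperones Calr and Canx, and the protein disulfide isomerases Pdia3, P4hb, Pdia4 and Pdia6. They were chosen by name, and every array probe set annotated with one of these symbols alone was taken. This gave 20 of the 22626 probe sets tested, for 10 of the 12393 genes with 1 symbol. Of the members, 3 had 1 probe set, 4 had 2 and 3 had 3, and the brightest probe set of a gene, by its mean over all arrays, stands for the gene below.

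Liver RNA on 12 arrays came from male mice, 6 weeks old, that carried human alpha1-antitrypsin (AAT) as a transgene which can be switched and is expressed in hepatocytes. Z on mice (title group Z4) carried the mutant Z form and received no doxycycline, so that the transgene was expressed. Z off mice (Z1) carried the same form and drank doxycycline at 40 µg/mL from conception, which kept it silent. M on mice (M4, no doxycycline) and M off mice (M1, doxycycline from conception) carried the wild-type M form. Each group held 3 arrays, which are biological replicates by their labels. Expression and absence of doxycycline cannot be told apart in this design, nor can the Z form and the line that carries it. The human transcript itself was not analysed here. A signal in whole liver cannot tell fewer cells of a type from less RNA per cell.

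The ER is where secreted and membrane proteins fold. Hspa5 (BiP, GRP78) binds exposed hydrophobic stretches, Dnajb11 (ERdj3) delivers clients and stimulates its ATPase, and Hyou1 (GRP170) exchanges its nucleotide. Calr and Canx hold glycoproteins with trimmed sugars and recruit Pdia3 (ERp57), while P4hb, Pdia4 and Pdia6 form and rearrange disulfide bonds. Hepatocytes export plasma proteins in bulk and keep this machinery at high levels. AAT is one of those exports, and its Z form misfolds and is held in the ER. When unfolded proteins build up, the sensors ATF6, IRE1 and PERK raise transcription of many of these genes, in part through the ER stress response element (ERSE), where NF-Y holds one end and ATF6 or XBP1 the other.

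The ERSE was looked for in RefSeq promoter windows (assembly GRCm38.p6, 250 bases before to 50 after the gene's start), which were at hand for 9 of the 10 members. Hyou1 had none. The element searched was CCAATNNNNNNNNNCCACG on both strands. It stood in 5 of the 9 member windows, those of Hspa5, Hsp90b1, Pdia6, Calr and Canx, and in 39 of all 32851 windows (0.119%). The elements are shown because they are what these 5 windows have in common. Each is read 5′ to 3′ on the strand that carries it, with the NF-Y box and the end bound by ATF6 or XBP1 in capitals and the spacer in lower case. Positions count from the gene's start.
Hspa5, chr2:34772025-34772043, gene's strand, -65 to -47: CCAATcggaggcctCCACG
Hsp90b1, chr10:86705638-86705656, gene's strand, -212 to -194: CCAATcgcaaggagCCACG
Hsp90b1, chr10:86705533-86705551, opposite strand, -107 to -89: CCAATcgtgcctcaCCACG
Pdia6, chr12:17266491-17266509, gene's strand, -98 to -80: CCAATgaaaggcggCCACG
Calr, chr8:84847075-84847093, opposite strand, -162 to -144: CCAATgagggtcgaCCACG
Canx, chr11:50325800-50325818, gene's strand, -145 to -127: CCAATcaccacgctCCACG
The 9 bases between the boxes differed among all 6 elements, and their distance and strand relative to the start differed as well.

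A related element, ERSE-II (ATTGGNCCACG, both strands), stood in 12 of all windows (0.0365%) and in 1 member window. It lay just inside the Dnajb11 transcript, 8 to 18 bases after the start, on the gene's strand, and capitals mark its fixed bases.
Dnajb11, chr16:22857852-22857862: ATTGGcCCACG
The NF-Y box CCAAT alone was present in 9 of 9 member windows and in 37.4% of all windows. CCACG, the other end of the ERSE, was present in 8 of 9 member windows, all but that of Pdia3, and in 32.8% of all windows. Both counts include the copies inside ERSE or ERSE-II matches. TGACGTG, the core of the unfolded protein response element (UPRE), occurred in the Hspa5 window at -157 to -151 and in 2.01% of all windows.

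The 250 bases before the start of Hspa5 and Hsp90b1 are given whole, since these carry the element nearest to a start and the only pair of elements. Capitals mark ERSE matches. In Hsp90b1 the second run of capitals is the element of the opposite strand as it reads on the gene's strand.
Hspa5, chr2:34771840-34772089, plus strand: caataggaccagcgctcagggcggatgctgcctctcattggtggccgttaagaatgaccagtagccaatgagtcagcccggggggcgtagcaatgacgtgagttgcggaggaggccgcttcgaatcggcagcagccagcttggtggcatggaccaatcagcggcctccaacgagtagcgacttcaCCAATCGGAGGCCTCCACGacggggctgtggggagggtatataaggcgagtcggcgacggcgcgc
Hsp90b1, chr10:86705445-86705694, minus strand: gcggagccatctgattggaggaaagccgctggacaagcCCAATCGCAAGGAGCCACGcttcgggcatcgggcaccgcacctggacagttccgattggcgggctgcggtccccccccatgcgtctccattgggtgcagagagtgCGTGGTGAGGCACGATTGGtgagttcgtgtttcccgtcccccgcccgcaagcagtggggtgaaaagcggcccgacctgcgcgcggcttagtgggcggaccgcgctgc

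**Figure D1:**
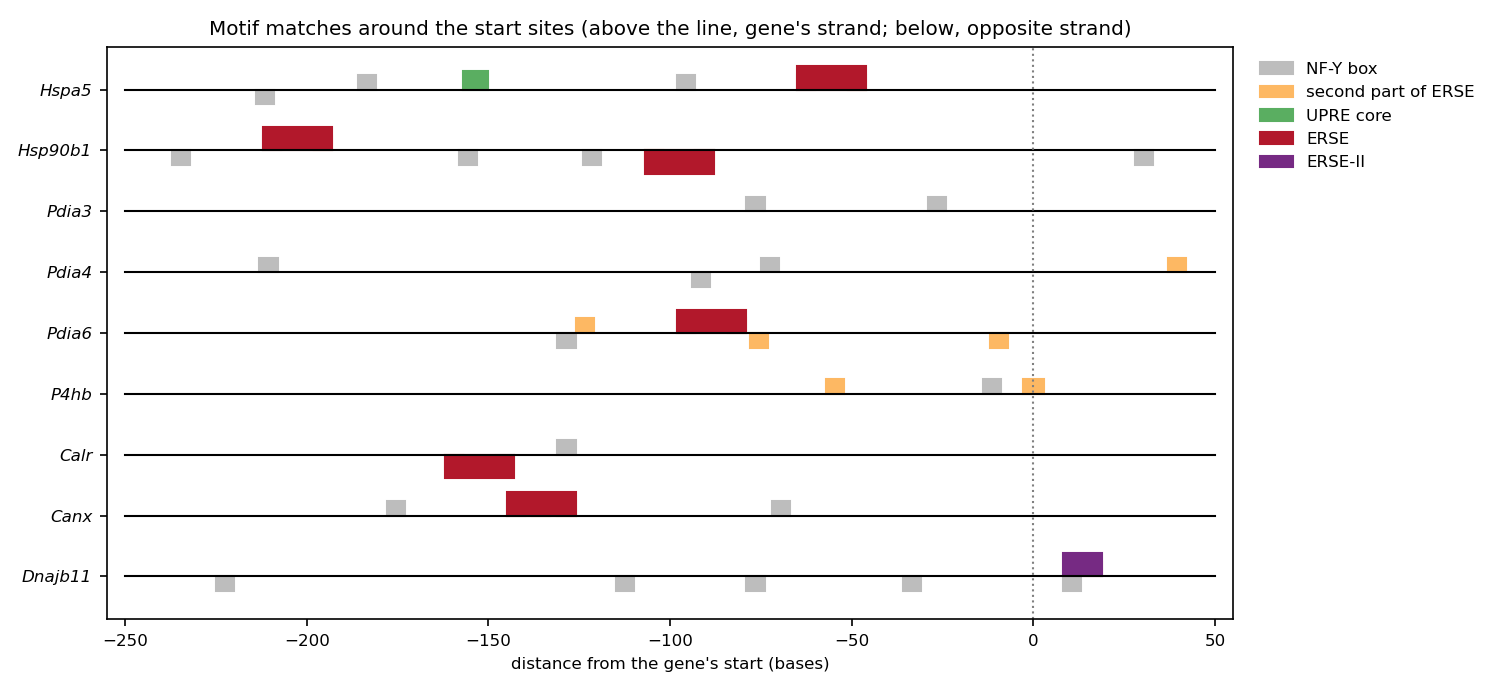
Motif matches in the 9 member windows, by distance from the gene's start in bases (dotted line), with matches on the gene's strand above each line and those on the opposite strand below. Hspa5, Hsp90b1, Pdia6, Calr and Canx hold an ERSE (red, 2 in Hsp90b1) and Dnajb11 holds an ERSE-II (purple).

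The central comparison, Z on against Z off, asks how the folding machinery reads when the misfolding protein is made. None of the 20 member probe sets passed limma's test (adjusted p under 0.05 over all 22626 probe sets), where 3 probe sets passed in all (0.0133%). The median difference of the 10 genes was -0.17 on the log2 scale, with 3 read higher and 7 read lower in Z on. The median over all genes was -0.03, and 52.8% of all genes read lower. The members' median was -0.31 without Z on replicate 3, -0.08 without Z on replicate 1 and -0.10 without Z off replicate 3. Single differences ranged from -0.37 to 0.16, and adjusted p-values from 0.871 to 0.997. Over the 10 members the 95% intervals reached up to 1.53-fold and down to 0.501-fold. At an unadjusted p under 0.05 there was 1 member probe set of 20, against 6.29% of all probe sets.

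Hspa5, the main Hsp70 of the ER, read 3764, 4316 and 5073 signal units on the Z on arrays, against 4617, 5846 and 5237 on the Z off arrays. In the M line it read 5090.3, 3709 and 4059.8 in M on, against 4629, 4249.5 and 4247 in M off. Z off had the highest mean and the groups overlapped in both lines. The log2 difference was -0.26 (SE 0.19, 95% interval -0.69 to 0.17, adjusted p = 0.871 in limma) for Z on against Z off and -0.04 (SE 0.19, interval -0.47 to 0.39) for M on against M off. A second Hspa5 probe set, which followed the first only loosely over the 12 arrays (r = 0.31), read lower in both lines, by -0.37 (interval -0.89 to 0.14) in Z and by -0.31 (-0.82 to 0.21) in M. On it the M on arrays read 975, 1199 and 1281, all below the M off arrays at 1364, 1485 and 1408.

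Dnajb11, the J-domain cochaperone of Hspa5, read 362, 348 and 493 in Z on, against 430.1, 449 and 470.2 in Z off. It read 389, 346 and 464 in M on, against 451, 439 and 375 in M off. In both lines 1 expressing array stood above all arrays of its silent group and the other 2 read below most of them. The log2 difference was -0.18 (interval -0.62 to 0.25) in Z and -0.08 (interval -0.52 to 0.35) in M.

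Hyou1, the large Hsp70 relative that exchanges nucleotide on Hspa5, read 323, 348 and 316 in Z on, against 429, 373 and 476 in Z off. All 3 Z on arrays lay below all 3 Z off arrays, which was so, in this direction, for 6.61% of all probe sets. The difference was -0.37 on the log2 scale (SE 0.28, interval -0.998 to 0.26, adjusted p = 0.874 in limma). In the M line the spread was wider, with 219.5, 338 and 487 in M on against 486, 343 and 346 in M off, a difference of -0.23 (interval -0.86 to 0.40). The other 2 Hyou1 probe sets were dim, with means of 54.97 and 17.6, and did not follow the first (r = -0.06 and -0.05). The dimmest of them read 1.8, 25.9 and 15.2 in Z on and 26.9, 11 and 30.7 in Z off. It read 40.2, 13.5 and 30.6 in M on against 2.8, 8.9 and 3.3 in M off, a difference of 2.55 (interval 0.46 to 4.65, adjusted p = 0.889). Its signals lay at the low end of the scale, where log2 differences are least certain.

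Hsp90b1 (GRP94), the Hsp90 of the ER, read 1385, 1038 and 1499.6 in Z on, against 1086, 1319 and 1476 in Z off. In the M line it read 1109, 1575 and 1970 in M on, against 1395, 1350 and 1445 in M off. The expressing groups were spread around the silent ones in both lines, and the differences were 0.01 (interval -0.54 to 0.56) in Z and 0.11 (interval -0.43 to 0.66) in M. A second probe set did not follow the first (r = -0.29) and differed between the lines instead. It read 365, 655 and 821 in Z on, 563, 613 and 605 in Z off, 479, 258 and 464 in M on, and 416, 416 and 404 in M off. Averaged over both states it was 0.56 higher in the Z line on the log2 scale (SE 0.23, adjusted p = 0.516), where the brighter probe set read -0.17.

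Calr (calreticulin), the soluble lectin chaperone, read lower in Z on than in Z off on all 3 of its probe sets. The brightest probe set read 2869, 2651 and 3555 in Z on, against 4508, 3451 and 3437 in Z off. Its M line signals were 2283, 3679.9 and 3506 in M on, against 2976, 3275 and 2775 in M off. Z off stood highest, and the difference was -0.33 (SE 0.23, interval -0.84 to 0.19, adjusted p = 0.871) in Z and 0.04 (interval -0.47 to 0.56) in M. The other 2 probe sets followed it closely (r = 0.90 and 0.95), so they add no independent evidence. They read -0.62 (interval -1.22 to -0.01, unadjusted p = 0.0472, adjusted p = 0.791 in limma) and -0.47 (interval -0.97 to 0.03, adjusted p = 0.798). The probe set at -0.62 had 2143, 2475 and 2515 in Z on, all below the Z off arrays at 4931, 3046 and 3196, and on that at -0.47 the groups were apart too. Both carry a suffix by which the array's maker marks probes that can match further transcripts. So do the brightest Canx, the brightest Hyou1 and the second Hspa5 probe set. The 2 Calr probe sets and the brightest of Hyou1 made 3 of 20 member probe sets whose Z groups did not overlap, all lower in Z on. Of all probe sets, 11.8% were apart in either direction and 6.61% were apart and lower.

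Canx (calnexin), the membrane-bound lectin chaperone, was the member whose changes in the Z and M lines were farthest apart. It read 1323, 1362 and 1441 in Z on, against 1060.3, 1254 and 1387 in Z off. In the M line it read 973, 1065 and 1188 in M on, against 1427, 1396 and 1302 in M off. All M on arrays lay below all M off arrays, while the Z groups overlapped. The difference was 0.16 (SE 0.16, interval -0.20 to 0.53) in Z and -0.36 (SE 0.16, interval -0.73 to 0.01, adjusted p = 0.974) in M. The difference between these changes was 0.52 (interval 0.00 to 1.04, unadjusted p = 0.0492) and did not pass over all probe sets (adjusted p = 0.933 in limma). The other 2 Canx probe sets pointed the same way in that comparison, by 0.44 (interval -0.45 to 1.32) and 0.47 (interval -0.29 to 1.22), and followed the first with r of 0.31 and 0.42.

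**Figure D2:**
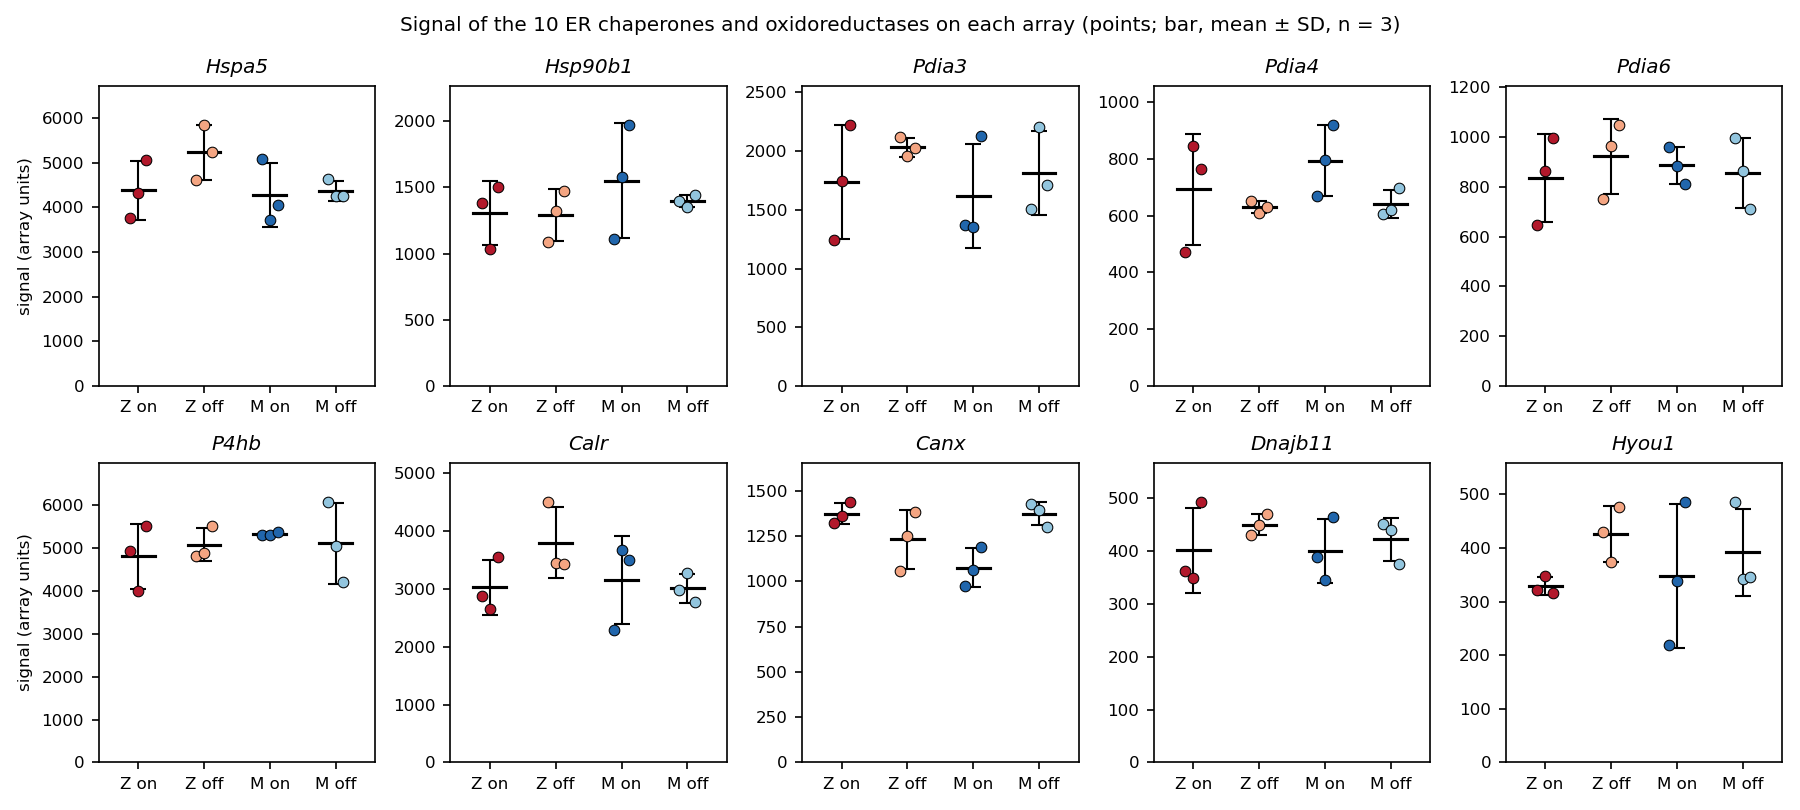
Signal of each member's brightest probe set on each array, in linear array units with an axis from 0, for Z on, Z off, M on and M off. Points are arrays and bars are the mean ± SD (n = 3), and the points of expressing and silent groups overlap in most panels, with Hyou1 apart in the Z line and Canx apart in the M line.

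Pdia3 (ERp57), the oxidoreductase that works with Calr and Canx, read 1245, 1748 and 2222 in Z on, against 2117, 1957 and 2027 in Z off. In M on it read 1373, 1349.9 and 2131, against 1511, 2209 and 1714 in M off. In each line 1 expressing array stood high and the other 2 lay below every array of the silent group. The differences were -0.27 (interval -0.87 to 0.34) in Z and -0.18 (interval -0.78 to 0.42) in M.

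P4hb, the founding protein disulfide isomerase and also the beta subunit of collagen prolyl 4-hydroxylase, had group means that lay within the spread of its arrays. It read 4920.2, 3995 and 5504 in Z on, against 4812, 4884 and 5516 in Z off. For M on the signals were 5306, 5297 and 5379.5, against 6078, 5044 and 4196 in M off. The differences were -0.09 (interval -0.52 to 0.34) in Z and 0.08 (interval -0.35 to 0.51) in M.

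Pdia4 (ERp72), an isomerase with several thioredoxin domains, read 472, 843 and 764 in Z on, against 652, 609.9 and 632 in Z off. M on arrays had 669, 795 and 919, against 605, 620 and 698 in M off. Expressing groups had the higher mean in both lines, with 1 low array in Z on, and the differences were 0.09 (interval -0.43 to 0.61) in Z and 0.30 (interval -0.22 to 0.82) in M. Pdia6 (P5), an isomerase that also binds the sensor IRE1, read 648, 864 and 999 in Z on, against 753, 966 and 1049 in Z off. M on arrays had 960.2, 886 and 814, against 995, 863 and 713 in M off. Its differences were -0.15 (interval -0.65 to 0.35) in Z and 0.06 (interval -0.44 to 0.56) in M, within the spread of the arrays. Second probe sets of Pdia4 and Pdia6 were dim, with means of 16.8 and 39.9, and did not follow the bright ones (r = -0.00 and 0.01).

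**Figure D3:**
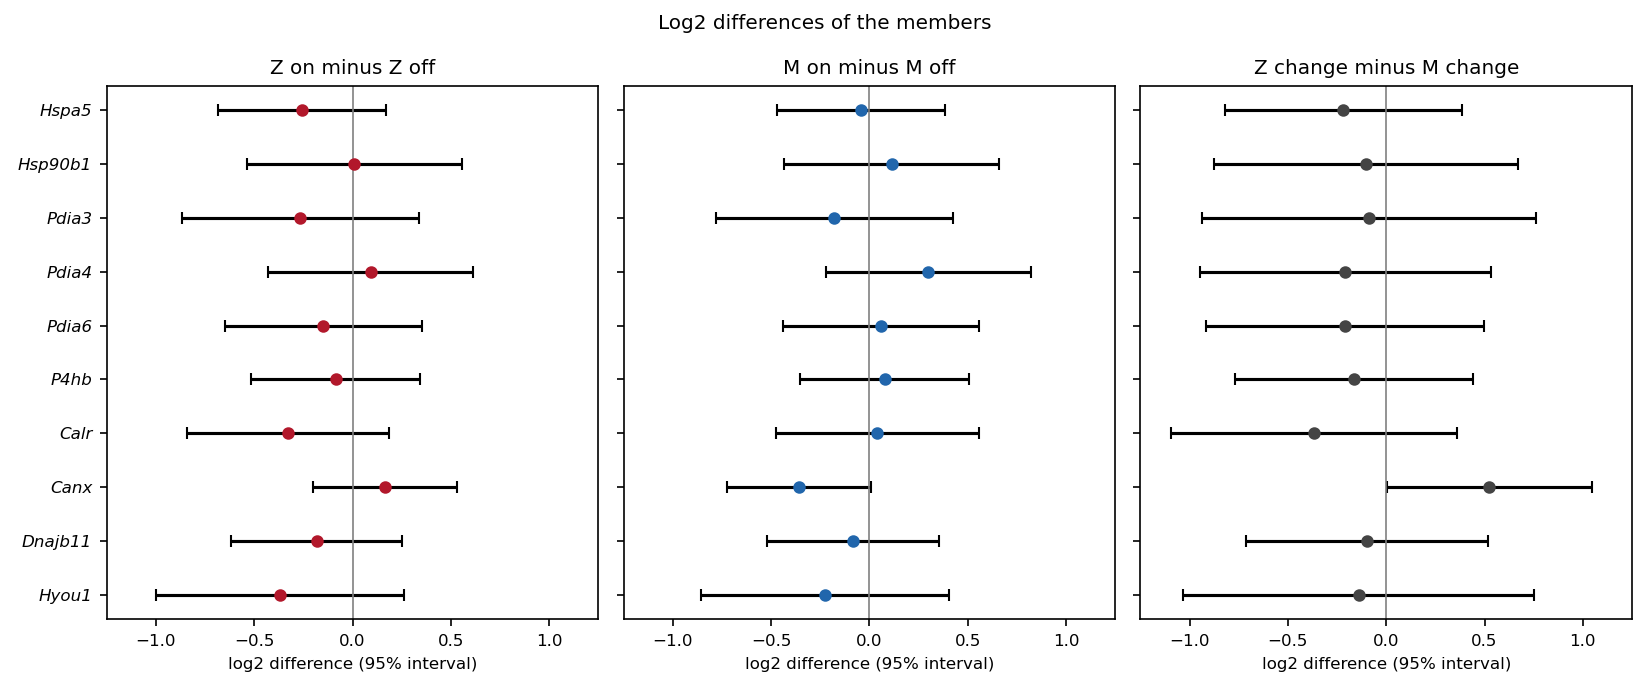
Log2 differences of the brightest probe set of each member (points) with 95% intervals (lines), for expressing minus silent in the Z line, the same in the M line, and the Z change minus the M change. Intervals cross 0 for every member in the first and second panel, and in the third that of Canx (0.00 to 1.04) starts just above 0.

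The response to the wild-type protein was read in M on against M off. None of 20 member probe sets passed in limma, nor did any of all probe sets (0%). There were 5 members read higher and 5 read lower in M on, with a median of -2e-04 against -0.0023 over all genes and single differences from -0.36 for Canx to 0.30 for Pdia4. Leaving out 1 array gave medians of -0.065 to 0.036. The upper ends of the intervals reached 1.77-fold and the lower ends 0.552-fold. At an unadjusted p under 0.05 there was 1 member probe set, the dimmest of Hyou1, against 5.18% of all probe sets. M groups were apart on 3 of 20, against 10.5% of all. The second Hspa5 and the brightest Canx probe set were the 2 lower ones (5.32% of all) and the dimmest of Hyou1 the 1 higher (5.23%).

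The test of whether the Z and M changes differed called no probe set (0%). There were 9 members with the lower value in Z and 1, Canx, with the higher, and the median was -0.15 against -0.03 over all genes. It was -0.28 without Z on replicate 3 and -0.041 without M on replicate 3, and it lay between -0.10 and -0.07 without Z on replicate 1, Z off replicate 3 or M off replicate 3. Intervals ran from -1.10 to 1.04 on the log2 scale. At an unadjusted p under 0.05 stood 2 of 20 member probe sets (brightest Canx and dimmest Hyou1), against 5.18% of all.

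Set against each other while expressing, Z on and M on livers differed in members by a median of -0.02 (-0.01 over all genes), with 3 read higher and 7 lower in Z on. This median was -0.16 without Z on replicate 3 and 0.045 without Z on replicate 1, so its sign rests on single arrays. None of 20 passed, against 0.00884% of all probe sets. Dnajb11 (difference -0.0025), Hyou1 (-0.0078), Hspa5 (0.03) and Calr (-0.04) were closest to 0, with intervals that reached 0.44, 0.64, 0.46 and 0.56 from it. The widest gap was that of Canx, 0.36 higher in Z on (interval -0.01 to 0.73, adjusted p = 0.745). A second Canx probe set read 444, 669 and 604 in Z on, against 349, 327 and 340.1 in M on, a difference of 0.74 (interval 0.11 to 1.36, unadjusted p = 0.0258, adjusted p = 0.658 in limma). Both of these Canx probe sets had groups that did not overlap, the only 2 of 20, against 12.1% of all probe sets in either direction and 6.07% higher. At an unadjusted p under 0.05 there was 1 of 20, against 6.85% of all. The third Canx probe set read 0.13 (interval -0.40 to 0.67).

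With the transgene silent, Z off livers read higher than M off livers for 7 members and lower for 3, with a median of 0.10 (0.02 over all genes). It was 0.028 without Z off replicate 3 and 0.029 without M off replicate 3. None of 20 passed, where 0.0707% of all probe sets did. Calr was 0.33 higher in Z off on its brightest probe set (interval -0.19 to 0.84, adjusted p = 0.787), and all 3 Calr probe sets had Z off above M off without overlap, as had the second Hsp90b1 and the dimmest Hyou1 probe set. These were 5 of 20, against 15.1% of all probe sets in either direction and 8.36% higher. The dimmest of Hyou1 was the 1 of 20 with an unadjusted p under 0.05, against 7.73% of all. Hspa5 was 0.25 higher (interval -0.17 to 0.68) and Pdia3 0.18 higher (interval -0.42 to 0.79). This comparison and that of Z on with Z off share the Z off arrays, so a high Z off reading enters both.

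Averaged over both lines, expressing minus silent livers gave a median of -0.12 (-0.01 over all genes), with 2 members read higher and 8 lower. The median was -0.16 without Z on replicate 3 and -0.068 without M on replicate 1. Single values ranged from -0.30 for Hyou1 (interval -0.74 to 0.15) to 0.20 for Pdia4 (interval -0.17 to 0.57). None of 20 passed (0.00884% of all), and none had an unadjusted p under 0.05 (5.84% of all). Averaged over both states, Z minus M livers gave a median of 0.05 (0.01 over all genes), which was 0.0052 without Z on replicate 3 and 0.12 without M on replicate 3. None of 20 passed (0.0884% of all), and 2 of 20 had an unadjusted p under 0.05, the second probe sets of Hsp90b1 and of Canx, both higher in the Z line (9.09% of all in either direction, 5.19% higher). For this second Canx probe set the difference was 0.52 (SE 0.20, adjusted p = 0.47), while the brightest Canx probe set read 0.10 and the third -0.10.

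The members varied among arrays of 1 group. The SD within groups on the log2 scale had a median of 0.25 and ran from 0.13 for Canx to 0.34 for Hyou1, against a median of 0.28 over all probe sets above the median level and of 0.19 over the 2077 genes with a mean signal of at least 300. The mean of the 10 members on an array, each centred on its own mean, was -0.22, -0.10 and 0.15 in Z on, against 0.02, 0.07 and 0.16 in Z off. It was -0.20, -0.06 and 0.17 in M on, against 0.07, 0.02 and -0.09 in M off. Z on held 2 arrays and M on 1 array below every silent array, and each also held an array among the highest. On Z on replicates 1 and 2 there were 2 of 10 members above their own mean, and on M on replicate 1 and M off replicate 3 there were 3. There were 9 on Z on replicate 3 and on Z off replicate 3.

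**Figure D4:**
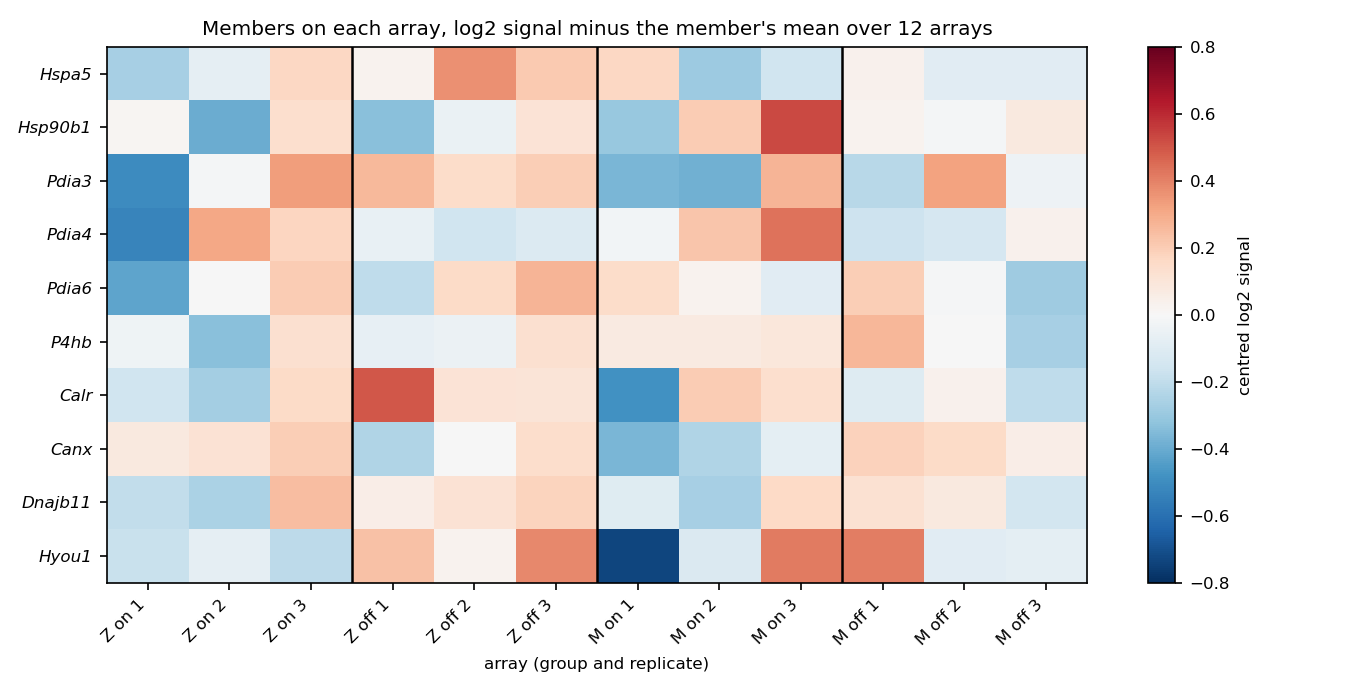
Each member's log2 signal on each array, minus its mean over the 12 arrays (colour scale from -0.8, blue, to 0.8, red), with arrays grouped as Z on, Z off, M on and M off. Z on replicates 1 and 2, M on replicate 1 and M off replicate 3 have 2 or 3 of 10 members above their own mean (red), and replicate 3 of Z on and of Z off has 9.

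As a description over 12 arrays that share group and hybridisation, the 45 pairs of members had a median correlation of 0.24, from -0.28 to 0.73 (Pdia3 with Dnajb11), with 38 above 0. With group means removed the median was 0.32 and the highest was Hsp90b1 with Canx (0.75). Hspa5 followed Pdia6 most closely of the other 9 members (r = 0.68, permutation p = 0.0165, Spearman's rho = 0.72, permutation p = 0.0105, n = 12 arrays, adjusted over 9 relations p = 0.149 and 0.0943). This relation was 0.83 without the 2 arrays farthest from the median of Hspa5 and 0.74 with group means removed. With Hsp90b1 it had r = -0.28 (permutation p = 0.374). Correlations with the members' mean over the 12 arrays were also ranked for 7020 other genes above the median level. How high the top of so many values would reach by chance with 12 arrays was not examined, so the highest are listed as a ranking only. They were Slc41a2 (r = 0.87), H1f2 (0.86), Clic4 (0.85), Septin7 (0.84), Cdh1 (0.84), Cldn1 (0.83), Tubb2a (0.83) and Inhba (0.82).

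In Z on against Z off, the 5 members with an ERSE in the promoter window had a median of -0.15, with 2 higher and 3 lower, and the 4 without one had a median of -0.13. In M on against M off the medians were 0.04 and -0.0029. A further 13 genes on the array carry the element in their window. In the Z comparison 4 of them read higher and 9 lower, with a median of -0.24 against -0.03 over 9887 genes with a window. Single values ran from -1.15 for Creld2, a stress-inducible ER protein, to 0.29 for Spats2l. The 13 also include Syvn1 (-0.90), the ligase that marks misfolded ER proteins for the proteasome, and Dnajc3 (-0.02), a cochaperone of Hspa5. The median of the 13 was -0.19 in the M comparison and 0.37 in Z off against M off.

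The neighbours of these genes in the folding pathway were read through 7 lists with 100 entries, of which 87 had a probe set. No gene of any list passed in any comparison of the main fit, with a lowest adjusted p of 0.616 in Z on against Z off and 0.298 in Z against M averaged over both states. In Z on against Z off, 1 of the 87 was higher and 7 were lower at an unadjusted p under 0.05, against 2.7% and 3.59% of all probe sets. These bases are unlike, since the 87 are the brightest probe sets of their genes and the shares include dim and further probe sets. The lists were also chosen with earlier results of these data known. Partners of the Hsp70 and Hsp90 of the ER made up 4 of these 7, out of 12 measured, with 3 read higher, 9 lower and a list median of -0.18. Creld2 read 237, 244 and 311 in Z on, against 465, 794 and 530.1 in Z off, and 299, 532 and 636 in M on, against 323, 364 and 327 in M off. All Z on arrays lay below all Z off arrays, as for 6.61% of all probe sets. The difference was -1.15 (SE 0.30, adjusted p = 0.616 in limma), while M on read 0.46 higher than M off. Creld2 had the smallest p of its list in this comparison.

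Dnajb9 (ERdj4), the J-protein that turns Hspa5 back onto IRE1, read 417, 431 and 648 in Z on, against 754, 812 and 781 in Z off. Its M on arrays read 363, 427 and 334, against 381, 507 and 493 in M off. Z off stood apart from all other groups, by 0.68 on the log2 scale above Z on (Z on minus Z off -0.68, SE 0.22, adjusted p = 0.672) and by 0.78 above M off (adjusted p = 0.417). Manf, a secreted cofactor that binds Hspa5, read 1028, 1489.8 and 1634 in Z on, against 1636, 2636 and 2618 in Z off. The difference was -0.72 (SE 0.25, adjusted p = 0.703), and the M line had 1539, 1415 and 1357 in M on, against 1307, 1576 and 1467 in M off. As for Dnajb9, all Z off arrays lay above those of every other group, though the lowest, at 1636, was only just above the highest of Z on. Of all probe sets, 6.61% had Z off above Z on without overlap and 8.36% had Z off above M off. The share above every other group was not counted. Both genes were named for a small p in Z on against Z off, which uses the same Z off arrays. Cnpy3, a cochaperone of Hsp90b1 for Toll-like receptors, read -0.68.

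Of the other lists, oxidoreductases beyond the members had 4 of 14 read higher and 10 lower in the Z comparison, with a median of -0.21, and 1, the dim Selenom, at an unadjusted p under 0.05. The glycoprotein folding cycle had 3 of 13 higher and 10 lower (median -0.20), with Uggt2, a relative of the glucosyltransferase that senses folding, under 0.05 at a dim signal. Prolyl isomerases and collagen chaperones had 4 of 10 higher and 6 lower (median -0.16). The collagen prolyl hydroxylase P3h1 was at -1.08 (adjusted p = 0.671 in limma). It read 31.4, 22.1 and 57.2 in Z on, against 70.3, 96.9 and 55.1 in Z off, so the groups overlapped. Over other settings its difference shrank to as little as -0.52. Translocation and signal peptide cleavage had 5 of 12 higher and 7 lower (median -0.08), with none under 0.05. Stress transcription factors and sensors had 3 of 12 higher and 9 lower (median -0.22). The one under 0.05 was Atf6, the transcription factor and sensor named above, at 228, 213 and 232 in Z on against 148, 152 and 182 in Z off (0.49, SE 0.17, adjusted p = 0.706). Its M line signals were 219, 225 and 239.8 in M on, against 254, 198 and 193 in M off, so that the Z off arrays were the lowest. Of all probe sets, 11.8% had Z on and Z off apart in either direction, and 15.1% had Z off and M off apart. Ddit3 (CHOP), a target of the PERK branch, read -0.26 in Z and 0.86 in M (SE 0.28, adjusted p = 0.808). Chaperones of the cytosol and mitochondria had 9 of 14 higher and 5 lower (median 0.11).

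**Figure D5:**
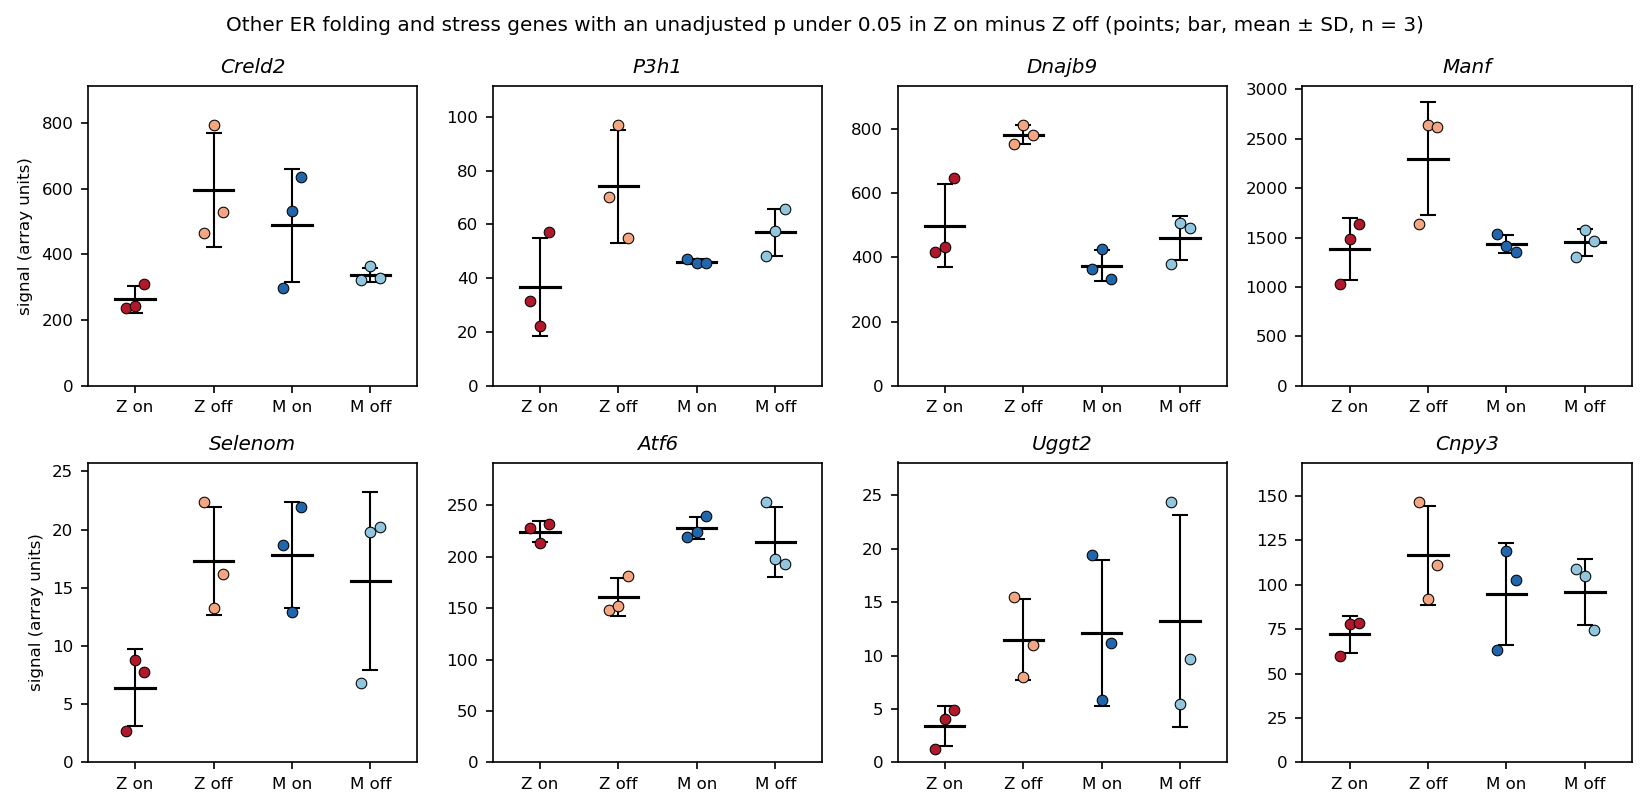
Signal on each array of the 8 list genes with an unadjusted p under 0.05 in Z on against Z off, in linear array units with an axis from 0, for Z on, Z off, M on and M off; points are arrays and bars the mean ± SD (n = 3). Atf6 is higher and the other 7 lower in Z on, Z off stands above both M groups for Dnajb9 and Manf and below them for Atf6, and Selenom and Uggt2 are dim. Z off and M off are apart, in either direction, for 15.1% of all probe sets.

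RNA measures and cell markers differed between some groups compared above. The ratio of 3′ to 5′ beta-actin signal was 2.44 to 5.16 in Z on, against 2.18 to 2.53 in Z off, and 3.09 to 4.38 in M on, against 2.72 to 3.89 in M off. The 18S control signal was 914 to 1492 in Z on, against 93.9 to 373 in Z off, and 227 to 768 in M on, against 568 to 709.8 in M off. Of the 10 marker lists, hepatocyte markers (5 of 5 measured) were bright in every group, with sums from 73482 to 121348. The summed signal of 7 of 7 stellate markers was 1121 to 1427 in Z on, against 1821 to 2057 in Z off, and 1228 to 1814 in M on, against 1968 to 2102 in M off. The sum of 3 of 5 erythroid markers was 159 to 273 in Z on, against 1153 to 1499.9 in Z off, and 253 to 305 in M on, against 282.5 to 335 in M off. Alas2 accounted for most of it, the other 2 being under 100 on all arrays. Slc4a1 read 8.1, 22.5 and 32.1 in Z off against 36.2, 15 and 12.6 in Z on. Hba-a1 read 35.7, 16.7 and 2.3 against 26, 37.6 and 9.9. On neither did Z off lie apart from Z on or from M off. On the 18S control and the erythroid sum, mostly Alas2, Z off arrays thus lay apart from Z on and from M off arrays. These are the groups they are set against above. On the actin ratio, Z off arrays also lay apart from M off arrays but overlapped with Z on. Stellate sums were lower in the expressing than in the silent group of each line, without overlap. Plasma and B cell sums were at most 366 (4 of 5 measured markers under 100 on all arrays), and pancreatic acinar sums were 522 to 987 over all groups, with 4 of 5 under 100. Sums of Kupffer and macrophage markers were 1487 to 1755 in Z on against 1624 to 1785 in Z off. They were 1273.1 to 1628.9 in M on against 1260 to 1501 in M off. Z off thus lay apart from M off on this sum but overlapped with Z on. Sums of sinusoidal endothelium were 708 to 895 in Z on against 696 to 874 in Z off. In M on they were 585.4 to 634.9, below all of Z on and below M off at 685.9 to 736.4. Cholangiocyte, neutrophil and skeletal muscle sums reached at most 154, 229.5 and 452. The part of any of these in the members' differences was not tested.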

How the data were processed

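Liver RNA was prepared with TRIZOL and RNeasy columns, labelled with biotin and hybridised to 12 one-colour Affymetrix arrays, per the labels. The deposited values are intensities, 1 linear signal per probe set and array. The submitters' processing notes name RMA, but the deposited values are not on the log2 scale and not equal in distribution: array medians ran from 38.8 to 47.2 while the mean trimmed by 2% at each end was 150.07 to 150.08, and the method that gave them was not given in the sources used here. Of all values 28.4% lay below 16, where log2 differences are least certain, and no detection calls were used. The number of arrays limits the precision.

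The 64 control probe sets of the 22690 were left out. The 1 value of 0 was set to 0.1 and log2 was taken with no further normalization. Gene symbols came from the platform annotation (20380 probe sets with 1 symbol, 691 with several, 1555 with none). With limma 3.58.1 (lmFit and eBayes in R 4.3.3, two-sided) the 4 group means were estimated from the 12 arrays together, 7 contrasts were taken, and Benjamini-Hochberg adjustment ran over 22626 probe sets. The fit was tested on simulated data. The changes added there exceeded every difference of the members' brightest probe sets, so power at such sizes was not tested. Promoter windows came from RefSeq (GRCm38.p6).

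The 10 members, the 7 pathway lists and the 10 marker lists were chosen with earlier results of these data known. All members are described. Of each pathway list, up to 4 genes with the smallest p in Z on against Z off and up to 4 in Z against M could be named, as could the 8 genes most like the members. Syvn1, Dnajc3 and Spats2l were named for their promoter element after their values were seen. Replicate numbers were checked as pairs: same-numbered arrays of different groups had deviations that correlated by -0.08 to 0.16 (median 0.02), over 0.1 in 3 of 18 pairs. Differently numbered arrays had -0.18 to 0.16 (median -0.01), over 0.1 in 3 of 36 pairs. The fit did not use the numbers as pairs. Single signals can still follow the number, as Alb fell from replicate 1 to 3 in every group. The members' mean rose from replicate 1 to 3 in Z on, Z off and M on and fell in M off. Whether same-numbered arrays share a step of handling was not tested. Alternatives were quantile normalization, centring on the array median, adding 16 or 50 before log2, an intensity trend with robust variances, a filter on dim probe sets, 1 probe set or the mean of probe sets per gene, only the groups compared, array weights, a replicate block, and leaving out each array.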

Additional observations from a re-analysis of the deposited data

How the results depend on the processing

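No member probe set passed in any of the 7 comparisons under any alternative or omission of 1 array; the lowest adjusted p of a member was 0.473 in Z on against Z off, 0.666 in M on against M off, 0.628 for the difference of the changes, 0.352 in Z on against M on, 0.416 in Z off against M off, 0.575 for expressing against silent and 0.205 for Z against M. Only the groups of a contrast could not give a value for the last 2 of these and for the difference of the changes. List genes with the smallest p came nearer to the threshold under some alternatives or omissions. In Z on against Z off the lowest adjusted p in limma was 0.165 for Creld2. In Z against M it was 0.0569 for Dnajb9, 0.0915 for Hsph1 and 0.0937 for Hspb1. With the replicate number as a block, which the labels do not name as a pairing, 0 member probe sets passed and the Z median was again -0.17. Of 1457 differences of single genes, 1428 kept direction and side of the threshold and 29 turned direction. Of 134 medians over the members, 10 had the opposite sign, 6 of 17 in M on against M off (-0.069 to 0.023 over settings, -0.065 to 0.036 over omissions) and 4 of 17 in Z on against M on (-0.093 to 0.030 and -0.16 to 0.045). Over settings the median ran from 0.0435 to 0.15 in Z off against M off and from 0.018 to 0.14 in Z against M, lowest with arrays centred on their medians and highest with a gene's probe sets averaged, and from -0.14 to -0.089 for expressing against silent. The members' median in Z on against Z off ran from -0.31 (without Z on replicate 3) to -0.077 over omissions and from -0.21 to -0.12 over other settings. For the values that turned direction the cause was not tested. In the Z comparison, Hsp90b1 read -0.0079 after quantile normalization, -0.010 with its probe sets averaged and -0.023 with array weights, and -0.11 to 0.17 over omissions. Over omissions P4hb ran from -0.19 to 0.040, Pdia4 from -0.071 to 0.35 and Pdia6 from -0.29 to 0.024. In the M comparison the ranges were -0.0855 to 0.26 for Calr, -0.20 to 0.016 for Dnajb11, -0.079 to 0.34 for Hsp90b1, -0.17 to 0.056 for Hspa5, -0.51 to 0.069 for Hyou1, -0.056 to 0.21 for P4hb and -0.067 to 0.17 for Pdia6. With a gene's probe sets averaged, dim ones included, the Z difference was -0.42 for Pdia4, 0.018 for Pdia6 and 0.18 for Atf4, the M difference was -0.0032 for Calr, 0.66 for Hyou1, -0.054 for Pdia4 and -0.33 for Pdia6, and the line difference was -0.14 for Cnpy2, 0.046 for Serpinh1 and -0.0435 for Srpr.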
